A study of Homo sapiens with 6 samples.

Results

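The genes described here are 10 core members of the Notch pathway, chosen by name: the receptors NOTCH1, NOTCH2 and NOTCH3, the ligands JAG1, JAG2 and DLL1, the DNA-binding factor RBPJ, and the target genes HES1, HEY1 and NRARP. All 10 were found in the deposited table of 58735 genes. The samples were SW480 cells, an established human colorectal cancer line. RNA was sequenced from 3 libraries of cells transfected with an siRNA against ITGB4 (integrin β4) and from 3 libraries of cells transfected with a negative control siRNA. The labels list all 6 as wild type and give neither the siRNA sequence nor the time after transfection. The series names the 3 libraries of a group biological replicates without saying whether they were separate cultures, so the p-values measure the spread between these libraries.

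Notch signalling passes between touching cells. A ligand of the Jagged or Delta family on 1 cell engages a Notch receptor on its neighbour, the receptor is cut by an ADAM protease and then by γ-secretase, and the freed intracellular part enters the nucleus and joins RBPJ on DNA to switch on genes such as HES1, HEY1 and NRARP. In the intestinal crypt this pathway maintains progenitors and directs cells away from the secretory fate, through HES1, which represses ATOH1.

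The siRNA target was read first. ITGB4 was at 41.1, 38.1 and 37.9 FPKM in ITGB4 siRNA replicates 1, 2 and 3, against 74.3, 63.8 and 69.8 FPKM in control siRNA replicates 1, 2 and 3, and it fell by 43.7% (log2 fold change -0.81, limma adjusted p = 0.0148). FPKM counts fragments relative to gene length and library size, and log2 fold changes are differences of log2(FPKM + 1), ITGB4 siRNA minus control siRNA. The libraries held 13715266 to 15496274 reads recovered from the FPKM values. Of 9 epithelial markers 7 reached a mean of 1 FPKM, with keratins KRT8, KRT18 and KRT19 among them and CDX1 and VIL1 below it. None of 7 fibroblast, 5 endothelial or 6 leukocyte markers did, and COL1A2, COL3A1, DCN, LUM, CDH5 and KDR were at 0. The summed leukocyte markers were at 1.02 to 1.19 FPKM with ITGB4 siRNA and 0.948 to 1.39 FPKM with control siRNA. The first principal component (27.8% of the variance) set replicate 1 of each group (-10.8 with ITGB4 siRNA, -17.27 with control siRNA) apart from the remaining libraries (3.28 to 14.36).

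The promoter of HES1 is shown because it is the textbook site of Notch-driven transcription, and that of NRARP because it is the most abundant Notch target measured here. Both are RefSeq sequences of GRCh38.p14, 250 bases before to 50 bases after the annotated start, read along the gene's strand. Capitals mark TGGGAA, the core word that RBPJ binds, and its variant TGTGAA, searched on both strands; on the opposite strand they read TTCCCA and TTCACA. The HES1 window is chr3:194135898-194136197 on the plus strand and the NRARP window chr9:137302222-137302521 on the minus strand.
HES1: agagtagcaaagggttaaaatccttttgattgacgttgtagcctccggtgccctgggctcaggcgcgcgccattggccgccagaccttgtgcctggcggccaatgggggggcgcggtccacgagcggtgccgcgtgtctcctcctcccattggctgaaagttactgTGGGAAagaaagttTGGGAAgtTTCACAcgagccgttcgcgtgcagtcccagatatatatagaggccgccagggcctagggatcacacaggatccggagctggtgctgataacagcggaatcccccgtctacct
NRARP: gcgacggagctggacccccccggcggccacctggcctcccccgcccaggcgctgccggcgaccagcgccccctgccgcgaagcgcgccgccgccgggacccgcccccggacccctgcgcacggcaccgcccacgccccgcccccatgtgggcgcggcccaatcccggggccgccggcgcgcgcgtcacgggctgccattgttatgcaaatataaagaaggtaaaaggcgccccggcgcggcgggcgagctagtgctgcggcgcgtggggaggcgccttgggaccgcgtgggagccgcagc

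HES1 held TGGGAA starting 84 and 70 bases before the start, and TGTGAA on the opposite strand starting 62 bases before it. The NRARP window held neither word, nor did those of NOTCH1, NOTCH2, NOTCH3, JAG1 and JAG2. RBPJ has 5 windows in the table: the one at chr4:26319496-26319795 held TGGGAA on each strand, the one at chr4:26342890-26343189 held TGTGAA, and 3 held neither word. DLL1 and HEY1 were not searched. TGGGAA occurred in 24% of all 35116 promoter windows of this length and TGTGAA in 13.1%, so a single match is common. The HES1 arrangement, TGGGAA followed after 16 bases by TTCACA, is a head-to-head pair. It was found in 3 of 35116 windows, those of HES1, HES4 and ARHGAP22, when the spacing was taken from HES1. HES4 is another gene of the HES repressor family, and its pair lies at chr1:1000146-1000173 on the minus strand, beside the HES1 pair at chr3:194136064-194136091 on the plus strand.
HES1 pair: TGGGAAagaaagtttgggaagtTTCACA
HES4 pair: TGGGAAagaatgcggagccgggTTCACA
In this shorter print the capitals mark the outer pair only. ARHGAP22 had 2 to 5 reads per library.

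Of the 10 genes, 8 had a mean of at least 1 FPKM over the 6 libraries and were tested, and limma called 0 of them changed with Benjamini-Hochberg adjustment over all 12871 genes tested. Over all genes the same rule called 0.0466%. At an unadjusted p under 0.05 there were 3 members, DLL1, HES1 and JAG1, all with lower values in ITGB4 siRNA cells, where 2.92% of all genes tested passed in that direction and 5.83% in either. The same 3 genes had groups without overlap on the low side, as 5.36% of all genes did (11.1% in either direction). The number of members at an unadjusted limma p under 0.05 was 1 without ITGB4 siRNA replicate 1 (604 of the 12871 genes tested). It was 0 without ITGB4 siRNA replicate 2 (545 of all genes) or 3 (581 of all genes). Without control siRNA replicate 1, 2 or 3 it was 2, 3 and 2 (1307, 851 and 523 of all genes). The 3 without control siRNA replicate 2 were DLL1, HES1 and NRARP, while JAG1 had an unadjusted limma p of 0.107. At a mean of at least 5 FPKM the number of members was 1 of 7 tested (410 of 7295 genes). Limma-voom on the recovered reads also called 0 (0.202% of all genes), with 2 members and 749 of all 12871 genes at an unadjusted p under 0.05. The log2 fold change was below 0 in 7 of the 8, with a median of -0.10, while 51.5% of all genes tested lay below 0 and their median was -0.0034. Without control siRNA replicate 1 the median of the 8 was -0.05. DLL1 was tested only because of its level with control siRNA: it averaged 1.0046 FPKM over all libraries, just above the limit, and HEY1 (0.378 FPKM) and NOTCH3 (0.0937 FPKM) fell under it. These counts therefore describe the genes that passed and are no support for a shift of the pathway.

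**Figure D1:**
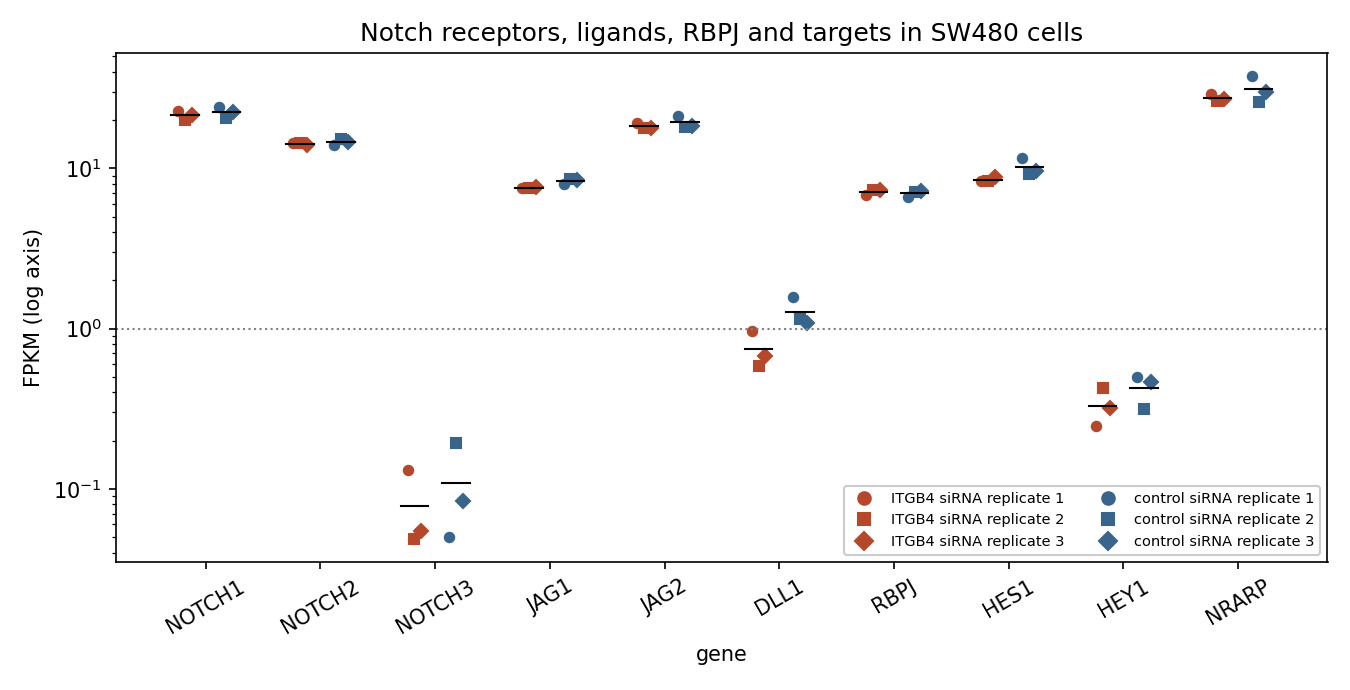
FPKM of the 10 Notch genes on a log axis in each library, ITGB4 siRNA in orange to the left of control siRNA in blue; marker shapes give the replicate, horizontal bars the group mean and the dotted line the 1 FPKM limit for testing. NRARP, NOTCH1 and JAG2 have the highest FPKM, and DLL1, HEY1 and NOTCH3 lie at the bottom.

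The levels ranked the same way in both groups by mean. In ITGB4 siRNA cells the order was NRARP, NOTCH1, JAG2, NOTCH2, HES1, JAG1, RBPJ, DLL1, HEY1 and NOTCH3, and the ranges of neighbours did not overlap. In control siRNA cells the ranges of NOTCH1 and JAG2 overlapped, since the lowest NOTCH1 library (20.7 FPKM) lay below the highest JAG2 library (21.3 FPKM). The order of different genes depends on the gene length the authors used. With ITGB4 siRNA, NOTCH2 (16807 bases) had 3373 to 3693 reads and JAG2 (6397 bases) had 1705 to 1771. SW480 cells held transcripts of receptors, ligands and target genes together.

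Among the receptors, NOTCH1 and NOTCH2 were well expressed and NOTCH3 was near the limit of detection. NOTCH1 (ENSG00000148400; GRCh38 chromosome 9, 136494433 to 136545786, minus strand) was at 22.9, 20.1 and 21.5 FPKM in ITGB4 siRNA replicates 1, 2 and 3, against 24.2, 20.7 and 22.5 FPKM in control siRNA replicates 1, 2 and 3. The groups overlapped, and in each of them replicate 1 was the highest and replicate 2 the lowest. The log2 fold change was -0.06 (SE 0.0727, 95% interval -0.23 to 0.11, limma adjusted p = 0.998). An antisense gene, AL592301.1, lies over NOTCH1 with 7 to 13 reads per library, against 3190 to 3722 for NOTCH1.

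NOTCH2 (ENSG00000134250; chromosome 1, 119911553 to 120069626, minus strand) was at 14.5, 14.4 and 14.0 FPKM in ITGB4 siRNA libraries, against 14.0, 15.3 and 14.7 FPKM in control siRNA libraries. The groups overlapped, and the log2 fold change of -0.04 had the interval -0.15 to 0.08 (SE 0.0493, limma adjusted p = 0.998). It was -0.07 without control siRNA replicate 1 and -0.0082 without control siRNA replicate 2. NOTCH2 has near-identical partial copies in the genome, of which NOTCH2NLA was listed at a mean of 0.115 FPKM with ITGB4 siRNA and 0.121 FPKM with control siRNA. How reads shared between them were counted is not given in the sources used here. NOTCH3 (ENSG00000074181; chromosome 19, 15159038 to 15200981, minus strand), known best from vascular smooth muscle, had 17, 7 and 8 reads in ITGB4 siRNA libraries, against 7, 27 and 12 in control siRNA libraries. A difference was not detectable at that depth.

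Among the ligands, JAG2 was the most abundant, JAG1 followed, and DLL1 was low. JAG1 (ENSG00000101384; chromosome 20, 10637684 to 10673999, minus strand) was at 7.55, 7.55 and 7.65 FPKM in ITGB4 siRNA replicates 1, 2 and 3, against 7.99, 8.54 and 8.43 FPKM in control siRNA replicates 1, 2 and 3. Every ITGB4 siRNA library was under the lowest control library, and the ITGB4 siRNA group was the tighter, with a coefficient of variation of 0.726%, against 3.51% with control siRNA. The means were 7.58 ± 0.0551 FPKM with ITGB4 siRNA and 8.32 ± 0.292 FPKM with control siRNA (SD, n = 3 each), a difference of -8.86%. The log2 fold change of -0.12 (SE 0.0489, 95% interval -0.23 to -0.0023) was not a call over all genes (limma adjusted p = 0.852; exact permutation p = 0.1, the smallest that 3 against 3 libraries can give).

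JAG2 (ENSG00000184916; chromosome 14, 105140981 to 105168824, minus strand) was at 19.2, 17.8 and 17.8 FPKM in ITGB4 siRNA libraries, against 21.3, 18.3 and 18.5 FPKM in control siRNA libraries. Replicate 1 was the highest library of each group, and the groups overlapped. Its log2 fold change was -0.08 (SE 0.0707, 95% interval -0.24 to 0.09, limma adjusted p = 0.998).

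DLL1, the Delta-like ligand that secretory progenitors of the gut present to their neighbours, had the largest relative difference of the tested members, on few reads. DLL1 (ENSG00000198719; chromosome 6, 170282206 to 170306565, minus strand) was at 0.962, 0.588 and 0.677 FPKM in ITGB4 siRNA replicates 1, 2 and 3 (43, 29 and 34 reads), against 1.57, 1.15 and 1.08 FPKM in control siRNA replicates 1, 2 and 3 (75, 55 and 53 reads). The groups did not overlap, but ITGB4 siRNA replicate 1 came close to control siRNA replicate 3. The means were 0.742 ± 0.195 FPKM with ITGB4 siRNA and 1.27 ± 0.266 FPKM with control siRNA (SD, n = 3 each), a difference of -41.4%. The log2 fold change of -0.38 (SE 0.139, 95% interval -0.71 to -0.05) was not a call over all genes (limma adjusted p = 0.812; exact permutation p = 0.1). The added 1 FPKM shrinks the change of so low a gene: it was -0.71 with a pseudocount of 0.1 (limma adjusted p = 0.843) and -0.78 by limma-voom (adjusted p = 0.574). FAM120B overlaps DLL1 on the opposite strand with 367 to 480 reads with ITGB4 siRNA and 376 to 431 with control siRNA, and the labels do not say whether counting used strand, so reads of the overlap cannot be told apart.

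**Figure D2:**
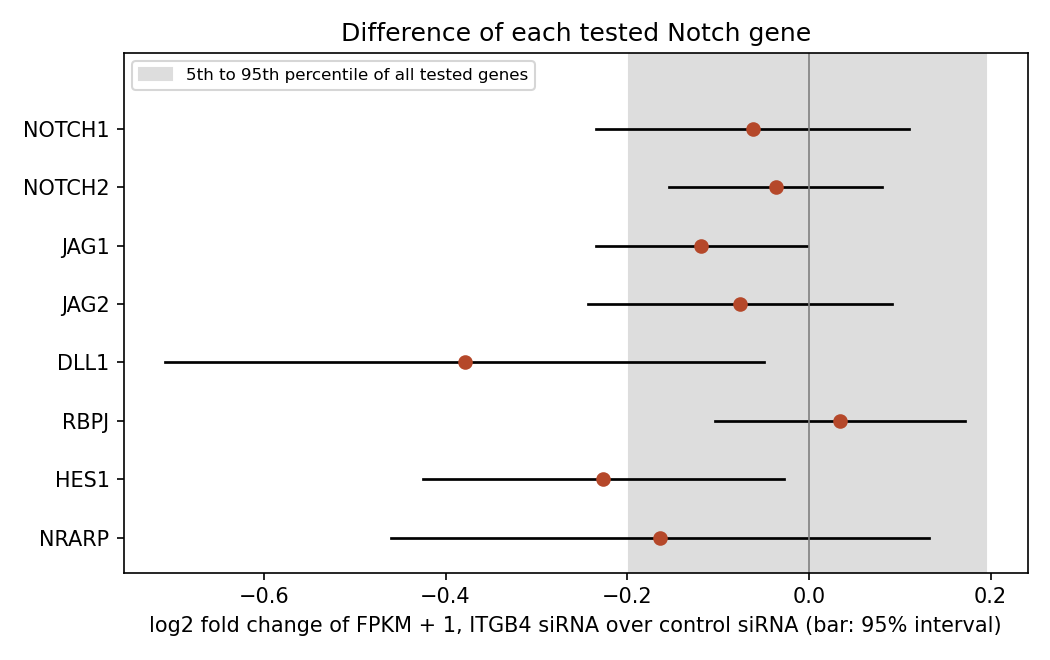
Log2 fold change of FPKM + 1 (points) with its 95% interval (bars) for the 8 tested Notch genes, ITGB4 siRNA over control siRNA; the grey band spans the 5th to 95th percentile of all tested genes, -0.20 to 0.20. DLL1 and HES1 lie outside the band on the low side, and the intervals of DLL1, HES1 and JAG1 do not reach 0.

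RBPJ, which holds Notch target genes off with corepressors until the Notch intracellular part arrives, was the 1 tested member above 0. RBPJ (ENSG00000168214; chromosome 4, 26163455 to 26435131, plus strand) was at 6.81, 7.39 and 7.30 FPKM in ITGB4 siRNA libraries, against 6.59, 7.15 and 7.18 FPKM in control siRNA libraries. Replicate 1 was the lowest library of each group, and the groups overlapped. The log2 fold change of 0.03 had the interval -0.10 to 0.17 (SE 0.0582, limma adjusted p = 0.998), and it turned to -0.0012 without control siRNA replicate 1.

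HES1, the bHLH repressor that is the best-known Notch target of the crypt, was lower in all ITGB4 siRNA libraries than in any control library, without passing over all genes. HES1 (ENSG00000114315; chromosome 3, 194136145 to 194138732, plus strand) was at 8.37, 8.38 and 8.78 FPKM in ITGB4 siRNA replicates 1, 2 and 3, against 11.6, 9.23 and 9.67 FPKM in control siRNA replicates 1, 2 and 3. The ITGB4 siRNA libraries lay close together, while control siRNA replicate 1 stood above every other library. The means were 8.51 ± 0.236 FPKM with ITGB4 siRNA and 10.2 ± 1.26 FPKM with control siRNA (SD, n = 3 each), a difference of -16.3%. On the log2 scale the difference was -0.23 (SE 0.0838, 95% interval -0.43 to -0.03, limma adjusted p = 0.812; exact permutation p = 0.1). Without control siRNA replicate 1 it was -0.14 (limma adjusted p = 0.473).

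NRARP, a small ankyrin-repeat protein induced by Notch that restrains it in turn, had the highest FPKM of the members. NRARP (ENSG00000198435; chromosome 9, 137300482 to 137302251, minus strand) was at 29.1, 26.4 and 27.0 FPKM in ITGB4 siRNA replicates 1, 2 and 3, against 37.7, 26.0 and 29.99 FPKM in control siRNA replicates 1, 2 and 3. The control group held both the highest and the lowest library, so the groups overlapped. Its log2 fold change was -0.16 (SE 0.125, 95% interval -0.46 to 0.13, limma adjusted p = 0.998), and it was -0.02 without control siRNA replicate 1 and -0.28 without control siRNA replicate 2.

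HEY1 (ENSG00000164683; chromosome 8, 79764010 to 79767863, minus strand), a HES-related repressor, was hardly detected. It had 11, 21 and 16 reads in ITGB4 siRNA libraries, against 24, 15 and 23 in control siRNA libraries, or 0.246 to 0.425 FPKM with ITGB4 siRNA and 0.313 to 0.502 FPKM with control siRNA. The groups overlapped, and it was not tested.

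Several members varied together over libraries within the groups. Control siRNA replicate 1 was the highest of all 6 libraries for 5 of the 8 tested members (62.5%), NOTCH1, JAG2, DLL1, HES1 and NRARP, and for 25.7% of all genes tested. Replicate 1 was the highest library of both groups for 4 of the 8 (NOTCH1, JAG2, DLL1 and NRARP), and for 22.2% of all genes tested. The coefficient of variation was larger with control siRNA in 7 of the 8, DLL1 being the exception, and in 64.7% of all genes tested. Without control siRNA replicate 1 the log2 fold change was -0.0089 for NOTCH1, -0.0077 for JAG2 and -0.28 for DLL1, while that of JAG1 was -0.14. The part of this library in the results of the groups was not tested further. Without replicate 1 of both groups, chosen after seeing the data, HES1 was at -0.13, DLL1 at -0.37 and JAG1 at -0.14.

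**Figure D3:**
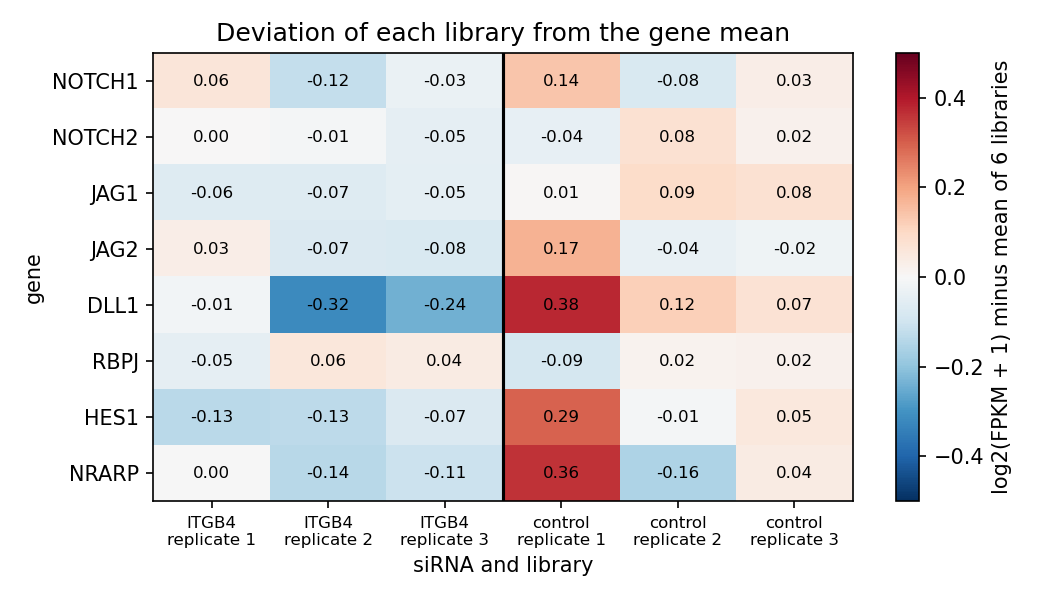
Each cell gives log2(FPKM + 1) of a library minus the mean of the 6 libraries for that gene; ITGB4 siRNA libraries are left of the black line and control siRNA libraries right of it. The largest positive values, for DLL1, NRARP and HES1, are all in control siRNA replicate 1, while JAG1 is at -0.07 to -0.05 in the ITGB4 siRNA libraries and 0.01 to 0.09 in the control siRNA libraries.

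The rest of the pathway was described by 9 lists with 91 genes, of which 89 were found and 61 tested. Limma called 0 of the 61 over all genes tested (at an unadjusted p under 0.05, 2 were lower and 1 was higher, 4.92% of the 61, near the 5.83% of all genes tested). Their median log2 fold change was -0.0059, with 28 above 0 and 33 below. Groups did not overlap for 2 of the 61 on the high side and 5 on the low side. Of all 12871 genes tested, 11.1% had groups without overlap in either direction, so the separations named below are no more frequent than over all genes by much. By median, the list farthest from 0 was that of the other HES and HEY genes.

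Of 9 other HES and HEY family genes 4 were tested, with 1 above 0, 3 below and a median of -0.14. HES7, a repressor known for the segmentation clock of the embryo, was at 2.24, 2.21 and 2.13 FPKM with ITGB4 siRNA (58, 63 and 62 reads), against 5.07, 2.82 and 4.00 FPKM with control siRNA (140, 78 and 114 reads). The ITGB4 siRNA libraries lay close together below a widely spread control group, and the log2 fold change of -0.61 (95% interval -0.99 to -0.23) had a limma adjusted p of 0.583. HES4, whose promoter carries the same spaced pair as HES1, was at 13.6, 14.1 and 12.5 FPKM with ITGB4 siRNA, against 20.4, 13.6 and 15.5 FPKM with control siRNA. Its groups overlapped and its log2 fold change was -0.26 (limma adjusted p = 0.938), with control siRNA replicate 1 again the highest library, as for HES6 and HES7. HEY2 was the opposite case, at 4.64, 3.87 and 3.80 FPKM with ITGB4 siRNA, against 3.77, 3.67 and 3.30 FPKM with control siRNA, with no overlap (log2 fold change 0.15, limma adjusted p = 0.951). The promoter windows of HES6 and HES7 held neither TGGGAA nor TGTGAA, while that of HEY2 held TGGGAA on each strand. A link between these words and the differences was not tested. HES3 was at 0 in all libraries, and HES5 averaged 0.0167 FPKM with ITGB4 siRNA and 0 with control siRNA.

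Ligands and receptors outside the 10 were scarce. DLL3 averaged 2.56 FPKM with ITGB4 siRNA and 2.44 FPKM with control siRNA, and DLK2 averaged 2.28 FPKM with ITGB4 siRNA and 2.15 FPKM with control siRNA. DLL4 (0.242 FPKM with ITGB4 siRNA, 0.234 FPKM with control siRNA) and NOTCH4 (0.158 FPKM with ITGB4 siRNA, 0.103 FPKM with control siRNA) were below the limit, and DLK1 was at 0.

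Genes that handle the ligand and receptor proteins lay close to 0. The 6 tested genes of ligand endocytosis had a median of 0.04, with MIB1, the ubiquitin ligase that internalises ligands, at -0.09, NEURL1B at 0.11 and NEURL4 at 0.08. The 7 tested genes of receptor glycosylation had a median of 0.01, with LFNG, the lunatic fringe enzyme, at -0.15, XXYLT1 at 0.14 and GXYLT2 at -0.09. The 8 tested genes of receptor cleavage had a median of -0.0098; FURIN was at -0.10, the sheddase ADAM17 at -0.12 and NCSTN, the nicastrin subunit of γ-secretase, at 0.07. Limma called 0 of the genes of these 3 lists.

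Of 13 tested genes of receptor trafficking and turnover, with a median of 0.02, CDK8 had the smallest p. CDK8, a kinase that marks the Notch intracellular part for destruction, was at 102.7, 104.1 and 98.6 FPKM with ITGB4 siRNA, against 91.8, 90.2 and 91.8 FPKM with control siRNA. The groups did not overlap, and the log2 fold change of 0.16 (95% interval 0.06 to 0.25) had a limma adjusted p of 0.528. CCNC, cyclin C, the partner of CDK8, was at -0.16, and NUMB, which antagonises Notch at the membrane, at 0.13, both with overlapping groups.

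In the nucleus, the 7 tested coactivators had a median of -0.04 with 6 below 0, and the 12 tested corepressors a median of -0.02 with 9 below 0. EP300, the acetyltransferase of the Notch complex, was at 15.4, 15.96 and 15.5 FPKM with ITGB4 siRNA, against 16.1, 17.3 and 17.1 FPKM with control siRNA, with no overlap (log2 fold change -0.10, limma adjusted p = 0.928). KAT2B was at -0.16 and SNW1 at 0.06. SPEN, the corepressor that binds RBPJ, was at 12.5, 12.01 and 12.5 FPKM with ITGB4 siRNA, against 13.2, 13.9 and 13.1 FPKM with control siRNA, with no overlap (log2 fold change -0.11, limma adjusted p = 0.854). TLE4, a Groucho corepressor recruited by HES proteins, was at 4.89, 4.09 and 4.78 FPKM with ITGB4 siRNA, against 5.40, 5.41 and 5.33 FPKM with control siRNA, with no overlap (log2 fold change -0.19, limma adjusted p = 0.806). CTBP2 was at -0.07.

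Of 12 genes of the secretory lineages of the gut, which Notch signalling opposes in the crypt, 10 were below 1 FPKM and 2 were tested. DCLK1, a tuft cell marker, averaged 11.1 FPKM with ITGB4 siRNA and 10.9 FPKM with control siRNA (log2 fold change 0.03). GFI1, a zinc finger repressor of secretory progenitors, averaged 3.34 FPKM with ITGB4 siRNA and 3.24 FPKM with control siRNA (log2 fold change 0.03). ATOH1, NEUROG3, NEUROD1, TFF3 and AGR2 were at 0 in all 6 libraries, and MUC2 averaged 0.00908 FPKM with ITGB4 siRNA and 0.00355 FPKM with control siRNA.

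**Figure D4:**
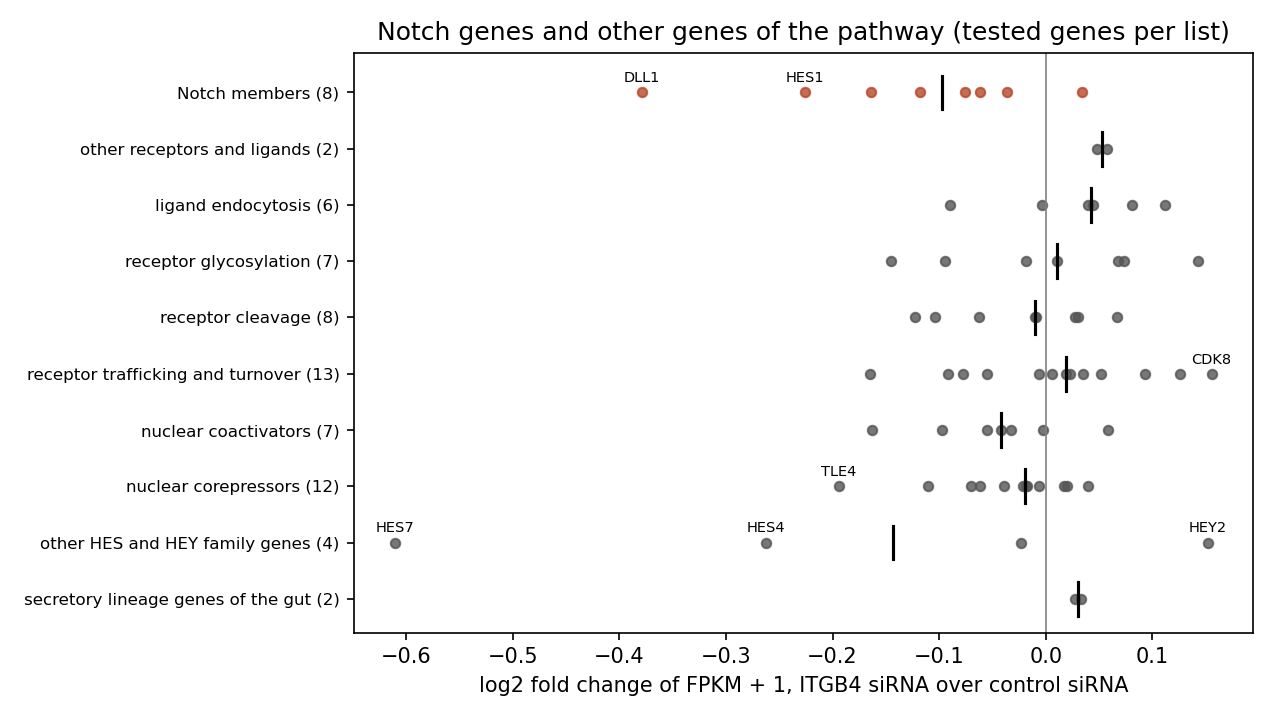
Log2 fold change of FPKM + 1, ITGB4 siRNA over control siRNA, for each tested gene of the Notch members (orange) and of 9 lists of other pathway genes (grey), with the list median as a black bar and the number of tested genes in brackets. Most genes lie within 0.2 of 0, and HES7, DLL1, HES4 and HES1 lie farthest to the left.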

How the data were processed

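The deposited table holds FPKM, computed by the authors for genes of GRCh38 (per the submitters' processing notes, which also name DESeq2 and edgeR without a role); the aligner and counter are not given in the sources used here. The gene length the authors used is in the deposited table. FPKM times length, in units of a single read, came out whole within 0.01 for 100% of values, which gave reads per gene. Genes averaging 1 FPKM or more were fitted as log2(FPKM + 1) with limma 3.58.1 (limma-trend, R 4.3.3), with no replicate term, two-sided, with Benjamini-Hochberg adjustment over all genes tested and an adjusted p under 0.05 as the call. Intervals are 95% confidence intervals. The test was checked on simulated data that gave every gene the same dispersion and no library a shift of its own. These libraries are less simple, so that check does not show how the test behaves on them. Libraries were grouped by title. Named genes were ITGB4, the 10 members and, from each list, the 3 tested genes with the smallest p; others were named after their values were seen. The members and lists were chosen with earlier results of these data known. Alternatives were another pseudocount, other filters, rescaling, TPM, limma-voom, a replicate block and leaving out libraries.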

Additional observations from a re-analysis of the deposited data

How the results depend on the processing

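Limma called 0 of the Notch members in every alternative run. Over all genes it called 6, with 0 of 31956 when low values were not filtered (1356 at an unadjusted p under 0.05), 26 by limma-voom, 0 with the replicate block (1064 at an unadjusted p under 0.05) and 0 to 7 when leaving out 1 library. Leaving out replicate 1 of both groups, chosen after seeing the data, gave 0. A run that called 0 genes did not call ITGB4, the siRNA target, either. Its 0 for the members therefore shows nothing about them. More genes tested, the degrees of freedom that the block takes up, and fewer libraries are part of these settings; beyond that, the cause was not tested. Of 111 values of single members under the alternatives, 110 kept direction and side of the threshold, and RBPJ turned to -0.0012 without control siRNA replicate 1. That count includes the other filters, the rescaling and the replicate block, under which the log2 fold changes equal those of the main fit. Their direction was fixed in advance. A filter leaves a gene's own values unchanged, the rescaling factors were 1 and the block is balanced over the groups. Over the fits that leave out 1 library, log2 fold changes lay between -0.29 and -0.14 for HES1, -0.47 and -0.28 for DLL1, -0.14 and -0.10 for JAG1, -0.28 and -0.02 for NRARP, and -0.0012 and 0.066 for RBPJ. Median-of-ratios factors were 1 in all libraries, so the deposited FPKM were already on that scale. This rescaling changed nothing and is no separate check. With the replicate block the log2 fold change of NRARP was -0.16 (limma adjusted p = 0.669). Deviations were also taken from each group's own mean of log2(FPKM + 1), over all genes tested. These correlated at 0.173, 0.102 and -0.01 between libraries numbered 1, 2 and 3. Between libraries with different numbers the correlations ran from -0.174 to 0.0862. The labels do not say whether a number marks a shared culture or day, and whether the libraries are paired was not tested. Depth limits HEY1, NOTCH3 and DLL1, at 7 to 75 reads per library.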
